A study of Saccharomyces cerevisiae with 8 samples.

Results

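Transcript ratios of Saccharomyces cerevisiae cells after 30 min with Iztli peptide 1 (IP-1) were read from 1 spotted array that carried RNA of 1 treated and 1 untreated culture. The array was taken by its label, and all of its yeast features were kept, which left out the empty spots and the features named after Arabidopsis genes. This gave 6336 features, the same 6336 as on each of the 4 arrays of the series, and 6152 of them passed the limit on dim spots. Both cultures were haploid cells of mating type a, strain BY4741, grown in the rich glucose medium YPD. The treated culture received 10 µM of IP-1, an antimicrobial peptide built to include the alpha mating pheromone, and the untreated culture received none. The other 3 arrays compared treated with untreated cultures of the same strain after 3.5, 7 and 15 min, each with a culture pair of its own. Treated RNA was labelled with Cy5 and untreated RNA with Cy3 on all 4 arrays, and any constant dye bias of a probe is therefore contained in its ratios.

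Cells of mating type a sense the alpha pheromone through the receptor Ste2, whose G protein starts a kinase cascade that ends at the transcription factor Ste12. Ste12 drives genes for agglutination, cell fusion and nuclear fusion, while Sst2 and the protease Bar1 end the signal. Genes for cytosolic ribosomal proteins are known for changing together with growth conditions.

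Each gene was printed as 2 spots, which are the samples called replicates 1 and 2. Both spots measured the same labelled RNA and are technical duplicates, so the values at 30 min rest on 1 pair of cultures and have no test of their own. Ratios are given as log2 of treated (IP-1) over untreated signal, where 0 is no difference and 1 is a 2-fold higher signal in the treated culture. They are set relative to features of equal brightness on the array. A feature was counted as higher or lower where both spots lay at least 0.5 from 0 in the same direction.

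The ratios at 30 min were narrow. Their SD over features was 0.18, against 0.25, 0.22 and 0.35 after 3.5, 7 and 15 min. The duplicate spots correlated across features at 0.559. The SD of a single spot was 0.14, taken as the SD of the difference between spots divided by the square root of 2. The 2 spots had the same sign for 68.9% of features. The median signal was 2.60 times its local background in Cy3 and 1.89 times in Cy5, the lowest Cy5 value of the 4 arrays. Of the 320 empty spots, 84.7% in Cy3 and 71.9% in Cy5 exceeded their local background by 2 background SDs at 30 min. The limit on dim spots asks this of both spots of a feature, in a channel, on all 4 arrays. Its criterion for a single spot is therefore lenient, and the empty spots were not put through the whole limit. In raw intensity, 4777 features exceeded the 95th percentile of the empty spots in both channels. All 7 a-specific genes exceeded that level, but so did 6 of 6 alpha-specific genes and 3 of 4 genes deleted in BY4741, and LEU2, one of the deleted genes, had raw Cy3 intensities of 58690 and 60210. Brightness on this array therefore did not separate genes of the labelled strain and mating type from genes it should not express, and what those probes bound was not tested.

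Of the 6152 features, 31 were higher at 30 min (0.504%) and 26 were lower (0.423%). At the stricter limit of 1, which is 2-fold in both spots, 1 was higher (0.0163%) and 0 were lower (0%). The same limit of 0.5 was passed by 108 higher (1.76%) and 108 lower features (1.76%) after 3.5 min, by 16 (0.26%) and 117 (1.9%) after 7 min, and by 217 (3.53%) and 416 (6.76%) after 15 min. Features just inside the limit were GAB1 at −0.66 and −0.50, YPR170C at −0.55 and −0.51, and DHH1 at 0.52 and 0.93. Just outside it lay MRS1 at 0.50 and 0.53, RPL37A at −0.50 and −0.55, and HSP42 at −0.54 and −0.50. Without centring, in the deposited ratios, 14 features were higher and 161 lower, and with median centring in place of loess 52 were higher and 30 lower.

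**Figure D1:**
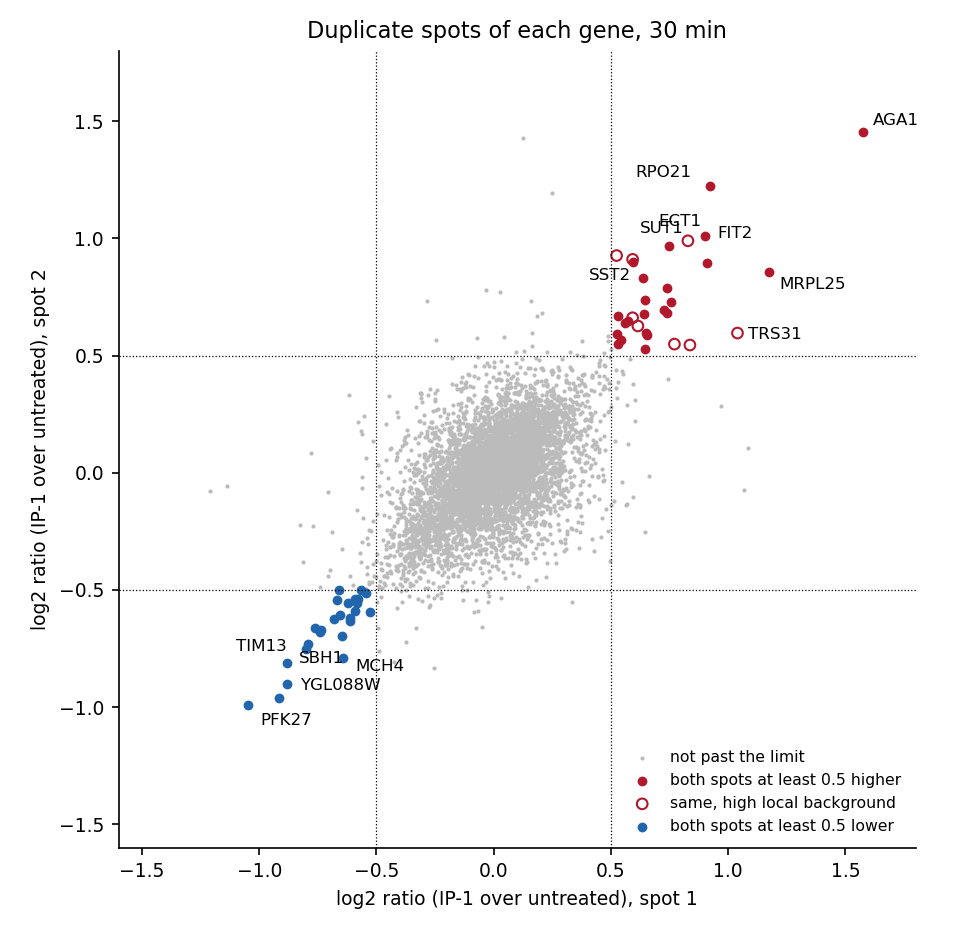
Log2 ratio of IP-1 over untreated at 30 min in spot 1 (horizontal axis) against spot 2 (vertical axis) for each of the 6152 tested features. Dotted lines mark the limits of 0.5 and −0.5, red points the 31 higher features (open circles where the local background was over 1.5 times the array median), and blue points the 26 lower ones; AGA1 stands alone at the upper right.

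The feature furthest from 0 was AGA1, which encodes the surface anchor of a-agglutinin, the adhesin of mating a cells. Its raw Cy5 intensities were 374 and 412 in the 2 spots, against raw Cy3 intensities of 197 and 222. The log2 ratios of its spots were 1.57 and 1.46, with a mean of 1.51, or 2.86-fold, and AGA1 was the feature past the 2-fold limit. It had ratios of 2.69, 1.65 and 1.97 after 3.5, 7 and 15 min, so its value at 30 min was the lowest of the 4, while all 4 lay above 0.

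SST2, the GTPase-activating protein that shuts off the pheromone G protein, had spots of 0.64 and 0.83 and a mean of 0.73, but it was not brighter than the empty spots in both channels. It was the other member of the pheromone response past the limit. The response list held 33 genes, of which 31 were tested: 2 were higher, where 0.504% of all features were, and 0 were lower. Means above 0 were found for 21 of the 31, where 50.8% of all features had one. The list's median was 0.06 against 0.00 over all features, and it had been 0.29, 0.00 and 0.39 after 3.5, 7 and 15 min. Relative to the median of all features it was −0.01 without background correction and above 0 in the other 7 settings.

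Close to the limit was KAR4, a transcription factor of nuclear fusion, with spots of 0.74 and 0.40. KAR3, the kinesin of nuclear fusion, had spots of 0.36 and 0.50, and FIG2, a cell wall adhesin of mating cells, had spots of 0.29 and 0.49. Their means were 0.57, 0.43 and 0.39, but none had both spots past the limit. Neither KAR4 nor KAR3 was brighter than the empty spots in both channels. The mean of KAR3 turned to −0.10 without background correction. In the deposited ratios it was −0.02, but these are not centred, and their median over all features was −0.10. The lowest member was PRM10, a membrane protein, at −0.42 and −0.40, followed by PRM9 at −0.38 and −0.26, the MAP kinase FUS3 at −0.01 and −0.40, and the sterol reductase ERG24 at −0.20 in both spots. The classical cell fusion gene FUS1 had spots of 0.04 and 0.31, and a mean of −0.16 in the same uncentred deposited ratios. PRM1, which helps plasma membranes fuse, had spots of 0.21 and −0.09.

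The a-specific genes, which a cells transcribe and alpha cells do not, were above 0 in both spots in 7 of 7 cases, whereas 34.8% of all features were. None passed the limit (0 of 7). The a-factor gene MFA1 stood at 0.47 and 0.36, BAR1 at 0.38 and 0.42, and the a-factor exporter STE6 at 0.19 and 0.48. These 3 were the highest of the list, and the receptor gene STE2 was the lowest, at 0.21 and 0.09, with a mean that turned to −0.06 without background correction. Between them lay ASG7 at a mean of 0.28, the second a-factor gene MFA2 at 0.18 and the a-agglutinin binding subunit AGA2 at 0.18. The median was 0.28 at 30 min and had been 1.08, 0.13 and 0.82 after 3.5, 7 and 15 min, and it lay between 0.16 and 0.34 above the median of all features in the 8 settings tried.

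The signal carriers themselves showed no common direction. Among 14 genes of the G protein and kinase cascade, 6 were above 0 and 8 below, with a median of −0.02 and 0 past the limit. The highest was CDC24, which activates the polarity GTPase Cdc42, with spots of 0.60 and 0.31. The lowest were the kinase STE20 at −0.20 and −0.30 and the Ste12 inhibitor DIG2 at −0.48 and 0.00. DIG2 had a Cy5 background of 2.34 times the array median, and its mean turned to 1.18 without background correction. The 7 genes that mature a-factor had a median of 0.02. Among 6 alpha-specific genes, 1 passed the limit: MF(ALPHA)2, which encodes alpha-factor, was lower with spots of −0.62 and −0.56. MF(ALPHA)1, which encodes most of the alpha-factor of alpha cells, had spots of 0.04 and 0.25.

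The cytosolic ribosomal proteins were mostly below 0 at 30 min, while their medians were above 0 at the other exposures. Of 104 tested genes, 79 had a mean below 0 at 30 min, or 76%, where 49.2% of all features did, and 67 (64.4%) were below 0 in both spots, where 34.1% of all features were. The median was −0.11, after 0.27, 0.05 and 0.39 at 3.5, 7 and 15 min. Of 62 genes that were above 0 on all 3 other arrays, 41 were below 0 at 30 min, where 521 of 1598 among all features were. The 30 min ratio was the lowest of the 4 in 77 of the 104 genes (74%), and in 24.5% of all features. Both subunits gave alike values, with medians of −0.10 for 61 genes of the large and −0.12 for 43 genes of the small subunit.

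RPL39 was the 1 ribosomal protein gene past the limit at 30 min, with spots of −0.59 and −0.54, and it had ratios of 0.09, 0.05 and 0.39 after 3.5, 7 and 15 min. Next to it lay RPL37A at a mean of −0.53, RPL24A at −0.49 and RPS22A at −0.45. RPL37A had already been below 0 after 3.5, 7 and 15 min, at −0.46, −0.57 and −0.12, and RPS22A at −0.51, −0.38 and −0.18. RPL24A had been at 0.09, −0.25 and −0.21. RPS31, which encodes a ubiquitin fused to a ribosomal protein, was at −0.44 after 0.27, 0.02 and 0.58, and RPL40A, another such fusion, was at −0.37 after 0.29, −0.03 and 0.80. A few members were high: RPP0, the stalk protein, had spots of 0.55 and 0.43, and RPS12 had spots that disagreed, at 1.07 and −0.07. Most cytosolic ribosomal proteins have a near-identical second gene whose RNA the probe may share, so the values of paired genes are not separate measurements. Relative to the median of all features, the median of the 104 genes was between −0.24 and −0.10 in the 8 settings tried.

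The test of 30 min against the mean of the other 3 arrays called 0 of 6152 features (0%) with limma after Benjamini-Hochberg adjustment (smallest adjusted p = 0.992), and 248 (4.03%) had an unadjusted p under 0.05. A count of 0 does not show that the features did not differ. Its p-values measure only the spread between arrays of different exposures. Among the 104 ribosomal protein genes the difference was negative in 99 (95.2%, against 47.8% of all features), with a median of −0.30 against 0.01, and 20 of them had an unadjusted p under 0.05. RPL39 had the lowest p of these, with a difference of −0.74 ± 0.19 (SE, unadjusted p = 0.0042, limma). An exact permutation of 1 array against 3 cannot give a p below 0.25.

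**Figure D2:**
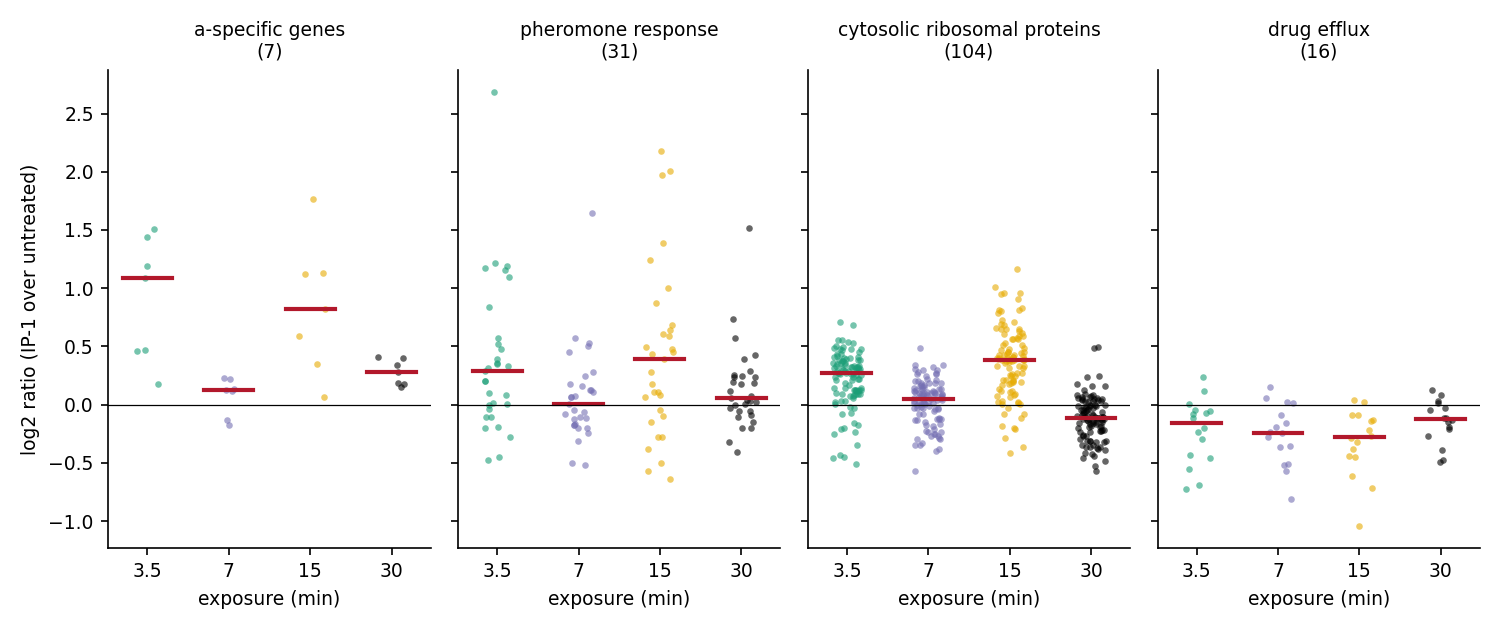
Log2 ratio of IP-1 over untreated (vertical axis, mean of 2 spots) on the arrays of 3.5, 7, 15 and 30 min for 4 gene lists, 1 point per tested gene and a red line at the median. The medians of the a-specific genes were 1.08, 0.13, 0.82 and 0.28, and those of the cytosolic ribosomal proteins 0.27, 0.05, 0.39 and −0.11.

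Outside the mating genes, the higher features included RPO21, which encodes the catalytic core subunit of RNA polymerase II, with spots of 0.92 and 1.22. MRPL25, a protein of the large mitochondrial ribosomal subunit, had spots of 1.17 and 0.86, and FIT2, a cell wall mannoprotein that holds iron-bearing siderophores, had spots of 0.90 and 1.01. The lists that hold these genes had medians near 0. The other 28 of 29 tested polymerase subunits did not pass, with a list median of −0.03. The mitochondrial ribosome had 1 of 70 genes past the limit and a median of 0.04, and the iron regulon 1 of 25 and a median of −0.03. FIT1 and FIT3, which encode similar siderophore-binding mannoproteins, stood at 0.25 and −0.21.

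SUT1, which encodes a regulator of sterol uptake, had spots of 0.75 and 0.97, and DAN1, a mannoprotein of anaerobic cell walls, had spots of 0.76 and 0.73. All 6 tested anaerobic mannoproteins were above 0, where 50.8% of all features were, with a median of 0.16. The lowest of them stood at 0.008, 4 were brighter than the empty spots in both channels, and 1 passed. TAX4, a regulator of phosphoinositide levels, had spots of 0.59 and 0.90. LOC1, a nuclear RNA-binding protein of ribosome assembly, had spots of 0.64 and 0.74, and the small GTPase GTR1, which acts upstream of TORC1, had spots of 0.64 and 0.53. YPS1, an aspartic protease of the cell surface, had spots of 0.73 and 0.69. Its ratios after 3.5, 7 and 15 min had been 1.08, 0.10 and 0.11. YMR304C-A had spots of 0.74 and 0.79, YDL211C 0.64 and 0.68, and ASA1, a subunit of the ASTRA complex, 0.55 and 0.56.

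Of the 31 higher features, 10 also passed the limit in the same direction at 3.5, 7 and 15 min: AGA1, RPO21, MRPL25, FIT2, YMR304C-A, TAX4, DAN1, LOC1, YCL041C and GTR1. A further 15 passed at none of the other exposures. High local background touched 7 of these 15. For DHH1, GLN3, GRS2, SFA1, SRY1 and YGR290W it was between 2.08 and 3.85 times the array median in Cy3, and for TRS31 it was 2.92 times the median in Cy5. ECT1, which encodes an enzyme of phosphatidylethanolamine synthesis and passed also at 15 min, had a Cy5 background of 3.17 times the median. Its spots were at 0.83 and 0.99, and those of TRS31, a subunit of the TRAPP vesicle tethers, at 1.04 and 0.60. Over all tested features, 449 (7.3%) had a background over 1.5 times the median in a channel, and without them 23 features were higher and 26 lower.

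For 5 of these features the direction at 30 min depended on the background. GLN3, an activator of nitrogen-regulated genes, had raw Cy3 intensities of 320 and 334, over a local Cy3 background of 337 and 328. Its ratio was 0.69 with background correction and −0.38 without. DHH1, a helicase of mRNA decapping, stood at 0.73 and −0.39, SFA1, a formaldehyde dehydrogenase, at 0.66 and −0.39, and YGR290W at 0.75 and −0.35 in the same order. GRS2, a glycyl-tRNA synthetase, stood at 0.63 and −0.03. No direction is given for these 5. In the other 26 of the 31 higher features, and in all 26 lower ones, the mean had the same sign in each of the 8 settings.

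The 8 features that passed only at 30 min and had an ordinary background were BCY1, FDO1, GRE2, PAC10, SEC9, TOS1, TSR3 and YIL067C. TOS1 had ratios of 0.32, 0.30 and 0.48 after 3.5, 7 and 15 min. Limma called it higher over those exposures (adjusted p = 0.036), so its ratio was not particular to 30 min. BCY1, the inhibitory subunit of protein kinase A, had spots of 0.74 and 0.68. FDO1, which takes part in mating-type switching, had spots of 0.91 and 0.89. Both passed the limit in all 8 settings. SEC9, a t-SNARE of exocytosis, had spots of 0.65 and 0.59, GRE2, a methylglyoxal reductase, 0.53 and 0.55, and PAC10, a subunit of the chaperone prefoldin, 0.53 and 0.59. In 7 of the 8, TOS1 apart, the ratio after 15 min lay below 0, where 3165 of all 6152 features lay above 0. It was −0.38 for BCY1, −0.47 for SEC9 and −0.77 for YIL067C. The 8 features were picked for not passing the limit on that array, among others, so this count is a description only. Their difference from the other arrays was not called by limma (smallest adjusted p over all features 0.992).

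**Figure D3:**
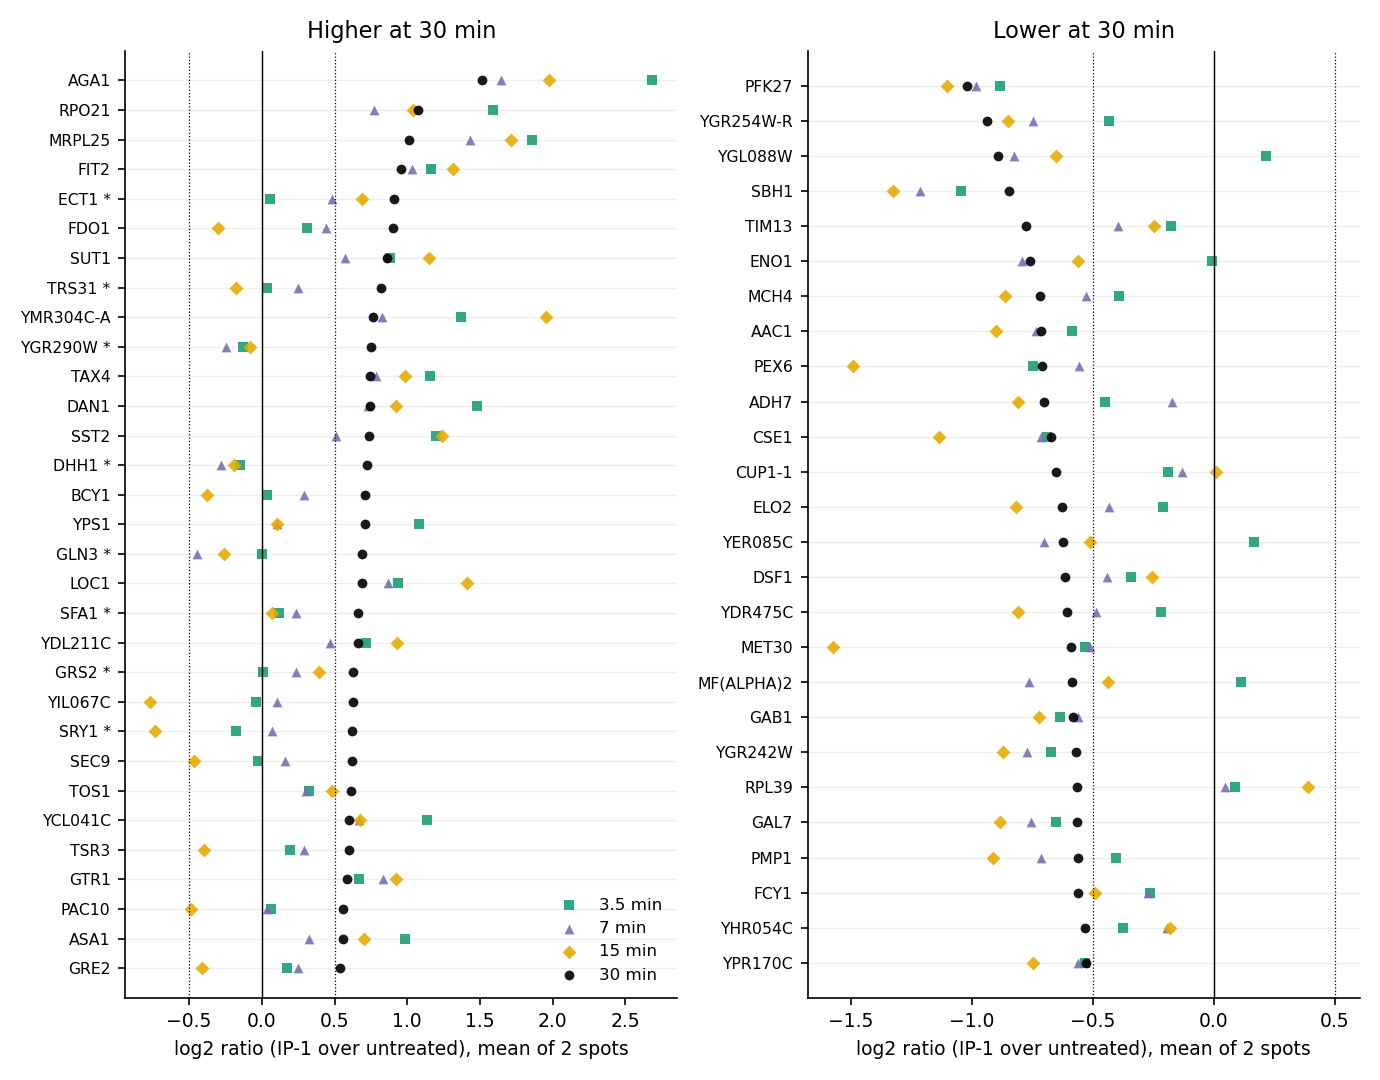
Log2 ratio of IP-1 over untreated (horizontal axis, mean of 2 spots) at 3.5, 7, 15 and 30 min for the 31 features higher (left) and the 26 lower (right) at 30 min, with dotted lines at 0.5 and −0.5. Names with an asterisk had a local background over 1.5 times the array median; the ratios of AGA1, RPO21, MRPL25 and FIT2 lay past 0.5 at each exposure, while those of YIL067C were 0.62 at 30 min and −0.77 at 15 min.

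The lower features were led by PFK27, a kinase that makes the glycolytic activator fructose 2,6-bisphosphate. Its raw Cy5 intensities were 252 and 246 against Cy3 intensities of 522 and 477. The spots had ratios of −1.05 and −0.99 with a mean of −1.02, or 2.03-fold lower, close to the −0.88, −0.98 and −1.10 at the other exposures. PFK26, which encodes the other kinase of this kind, had spots of −0.26 and 0.17. The list of glycolysis and fermentation around them had 1 of 20 genes past the limit and a median of 0.01, with pyruvate kinase CDC19 at 0.36 and pyruvate decarboxylase PDC1 at 0.33.

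SBH1, the beta subunit of the Sec61 channel of the endoplasmic reticulum, had spots of −0.88 and −0.81, while SBH2, its counterpart in the paralogous channel, had 0.03 and 0.02, and SEC61 itself 0.38 and 0.42. CSE1, the exporter of the import receptor Srp1, had spots of −0.65 and −0.70. PEX6, an ATPase of peroxisome assembly, had spots of −0.74 and −0.68, and AAC1, a minor ADP/ATP carrier of mitochondria, −0.76 and −0.66. TIM13, a chaperone of mitochondrial protein import, stood at −0.80 and −0.75 and did not pass at the other exposures, where it had −0.17, −0.40 and −0.25. ELO2, a fatty acid elongase, stood at −0.65 and −0.61, and MET30, the F-box protein that restrains the sulfur regulator Met4, at −0.59 in both spots. ADH7, an alcohol dehydrogenase, had spots of −0.74 and −0.67, and MCH4, a homologue of monocarboxylate carriers, −0.64 and −0.79. The features YER085C and YDR475C stood at means of −0.62 and −0.61. The sulfur amino acid list that holds MET30 had 1 of 29 genes past the limit and a median of 0.06.

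Of the 26 lower features, 21 carry 1 gene name and 5 carry several. The 5 with several names cannot be assigned to 1 gene, among them the feature listed as ENO1 (enolase) with spots of −0.79 and −0.73 and the feature listed as CUP1-1 (metallothionein) with −0.68 and −0.63. YGL088W, with spots of −0.88 and −0.90, overlaps the small nucleolar RNA gene SNR10 in the reference table, and RNA of both cannot be told apart. In the same direction, 8 features also passed at all 3 other exposures (GAL7, SBH1, CSE1, YGR242W, GAB1, AAC1, PEX6 and PFK27), and 6 at none (DSF1, TIM13, CUP1-1, YHR054C, RPL39 and FCY1). GAL7, of the galactose pathway, had spots of −0.59 and −0.54, and FCY1, which encodes cytosine deaminase, had −0.58 and −0.54. The lower features were brighter than the empty spots in both channels in 26 of 26 cases and the higher ones in 26 of 31. The 5 others were TOS1, TRS31, ECT1, MRPL25 and SST2. This comparison took raw intensities, so a spot on high local background can pass. GLN3 counted among the 26 higher ones although its raw Cy3 intensities of 320 and 334 lay over a background of 337 and 328. In all 8 settings, 14 lower and 7 higher features passed the limit. The 7 were AGA1, BCY1, ECT1, FDO1, MRPL25, RPO21 and TRS31. Of these, ECT1 and TRS31 had Cy5 backgrounds of 3.17 and 2.92 times the median. Their means rose from 0.91 and 0.82 to 1.52 and 1.75 without background correction. ECT1, TRS31 and MRPL25 were not brighter than the empty spots in both channels.

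Other groups on the low side were described by their members rather than by features past the limit. Of 16 tested drug efflux genes, 12 had a mean below 0 (75%, where 49.2% of all features did). None passed the limit (0 of 16), which 0.927% of all features did in either direction. The list's median was −0.12 after −0.16, −0.24 and −0.28 at 3.5, 7 and 15 min. The sterol transporter PDR11 had spots of −0.52 and −0.47, the exporter AQR1 −0.46 and −0.48, and the lipid transfer protein PDR16 −0.53 and −0.24, whereas the main drug pump PDR5 had −0.07 and 0.01. Relative to all features the list's median was between −0.18 and −0.10 in the 8 settings. Hexose transport held 10 tested genes of 17 with a median of −0.11. In it the low-glucose transporter HXT2 had spots of −0.53 and −0.48 and HXT1 −0.39 and −0.55, and 5 genes lay above 0. Another feature named for HXT2 stood at −0.05. The direction of the hexose list was not stable, since its median was 0.02 over features with both channels above the empty spots. The histones had 7 of 9 genes below 0 (77.8%, against 49.2% of all features) and a median of −0.09. Among them HTA1, HTB2 and HTB1 stood at −0.29, −0.28 and −0.26.

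The mitochondrial genome had 20 of 23 features below 0 (87.0%, against 49.2% of all features), a median of −0.17 and 0 past the limit. Only 10 of these 23 features were brighter than the empty spots in both channels. Several overlap one another, such as COB at −0.35 with the intron reading frame BI3 at −0.37. The direction was not stable, since the median lay 0.03 above that of all features in the deposited ratios. Nuclear genes of the TCA cycle and respiration had 31 of 48 means below 0 (64.6%, against 49.2% of all features) and a median of −0.07. AAC1 was past the limit, and SDH3, a subunit of succinate dehydrogenase, stood at −0.47 in both spots.

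On the high side, the early G1 list had 12 of 18 genes above 0 (66.7%, against 50.8% of all features) and a median of 0.09. Its highest members were EGT2, SIC1 and ASH1. EGT2, a glucanase-like wall protein of cell separation, had spots of 0.28 and 0.44. The cyclin kinase inhibitor SIC1 had 0.17 and 0.54, with a Cy3 background of 1.51 times the array median. ASH1, a daughter-cell repressor, had 0.42 and 0.23 but was not brighter than the empty spots in both channels. The lowest members were SCW11 at a mean of −0.37, PCL9 at −0.32, CTS1 at −0.14 and DSE3 at −0.14. The polarity list had 18 of 28 genes above 0 (64.3%, against 50.8% of all features) and a median of 0.07. Stress groups lay near 0: the medians were 0.01 for 42 general stress genes, −0.03 for 26 chaperones, 0.01 for 33 oxidative stress genes and −0.03 for 26 osmotic stress genes. GRE2 was the 1 feature of these 4 lists past the limit, and HSP42, a small heat shock protein just outside it, had spots of −0.54 and −0.50.

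**Figure D4:**
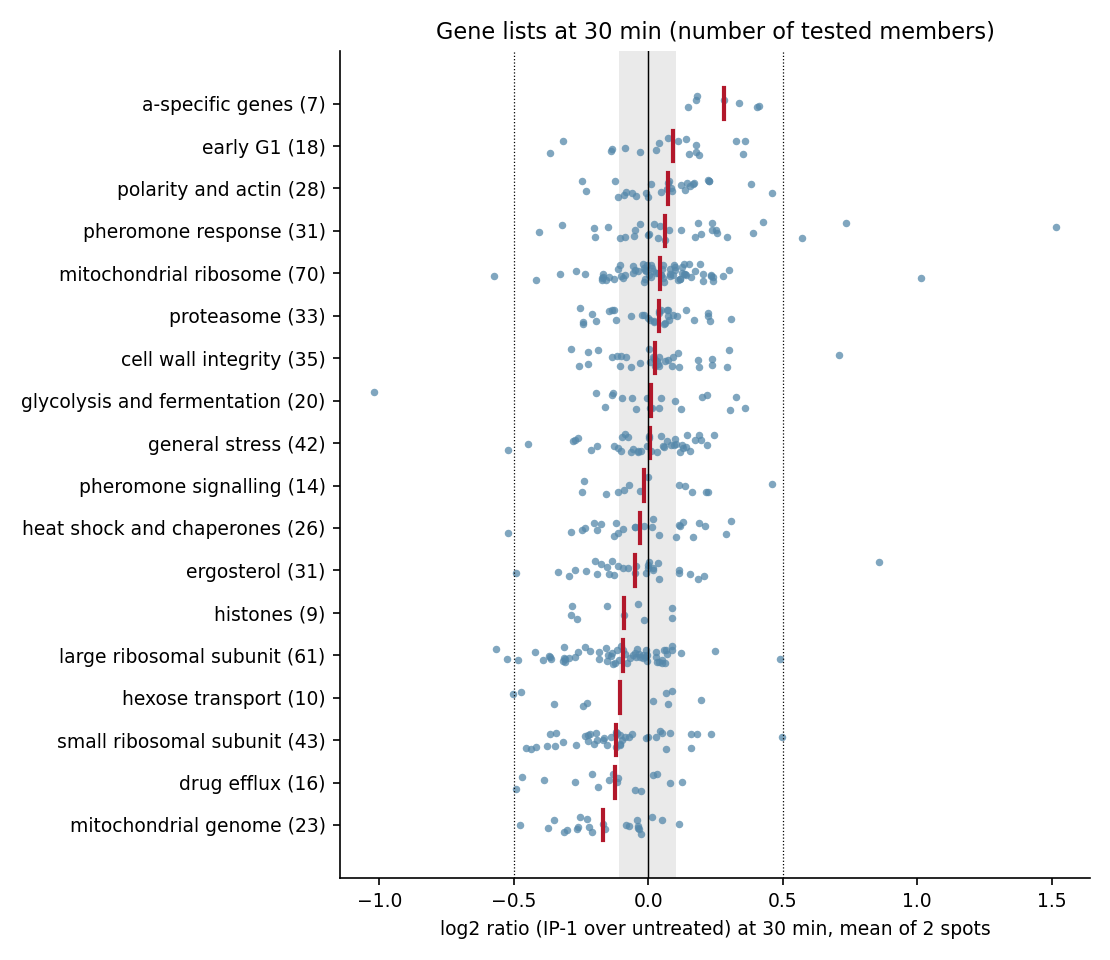
Log2 ratio of IP-1 over untreated at 30 min (horizontal axis, mean of 2 spots) for the tested members of 18 gene lists, 1 point per gene, with the list's median as a red line; the grey band spans the quartiles of all 6152 features (−0.11 to 0.10) and dotted lines mark 0.5 and −0.5. The a-specific genes had the highest of these medians, at 0.28, and the mitochondrial genome the lowest, at −0.17.

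Features that differed at the other exposures mostly had the same sign at 30 min. A limma test of the mean over 3.5, 7 and 15 min against 0 called 575 features (9.35%) without use of the 30 min array, 154 higher (2.5%) and 421 lower (6.84%). At 30 min, 121 of the 154 (78.6%) had a mean above 0, where 50.8% of all features did. The median of the 154 was 0.17 against 0.45 over the other exposures. The limit of 0.5 was passed by 15 of them (9.74%), where 0.504% of all features were higher. Of the 421, 401 (95.3%) had a mean below 0, where 49.2% of all features did. The median of the 421 was −0.23 against −0.47, and 18 (4.28%) passed, where 0.423% of all features were lower. These features were chosen for their size on the other arrays, and the 30 min array had the narrowest ratios of all features, so the lower medians are a description only. All 4 arrays share the dye orientation, so the shared sign also holds any dye effect of the probes. The number called fell to 20 without the 7 min array and to 162 without the 3.5 min array, and all 20 and 154 of the 162 had the same sign at 30 min.

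The extent differed between genes. AGA1, MRPL25, FIT2 and RPO21 were among the 10 highest over the other exposures, with means of 2.10 ± 0.53, 1.67 ± 0.22, 1.17 ± 0.14 and 1.13 ± 0.42 (SD, n = 3), against 1.51, 1.01, 0.95 and 1.07 at 30 min. MFA1 stood at 1.17 ± 0.83 (SD, n = 3) there and at 0.41 at 30 min, and BAG7, a GTPase-activating protein of Rho1, at 1.01 ± 0.52 (SD, n = 3) and 0.31. On the low side PFK27 had nearly the same ratio, at −0.99 ± 0.11 (SD, n = 3) and −1.02. PLB1, a phospholipase, stood at −0.94 ± 0.12 (SD, n = 3) and at −0.26. RSC9, a subunit of the RSC chromatin remodeller, stood at −0.89 ± 0.06 (SD, n = 3) and −0.44, and the helicase gene FAL1 at −0.94 ± 0.24 (SD, n = 3) and −0.56. KKQ8, a kinase gene, and GMC1, a meiotic gene, were below 0 over the other exposures and near 0 at 30 min, at 0.03 and 0.08.

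Features at least 2-fold higher or lower on another array were followed to 30 min. All 19 features with both spots at least 2-fold higher after 3.5 min were above 0 at 30 min, with a median of 0.60, and 10 of them passed the limit of 0.5, where 0.504% of all features did. Of 27 features at least 2-fold higher after 15 min, 23 were above 0 at 30 min (85.2%, against 50.8% of all features). The median of the 27 was 0.35, and 8 passed. Of 54 at least 2-fold lower after 15 min, 40 were below 0 (74.1%, against 49.2% of all features). The median of the 54 was −0.15, and 5 (9.26%) passed, where 0.423% of all features were lower. Across all 6152 features, which are not independent, the 30 min ratios correlated at 0.404, 0.532 and 0.305 with those of 3.5, 7 and 15 min, values that depth, dye orientation and probes shared between arrays also enter.

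**Figure D5:**
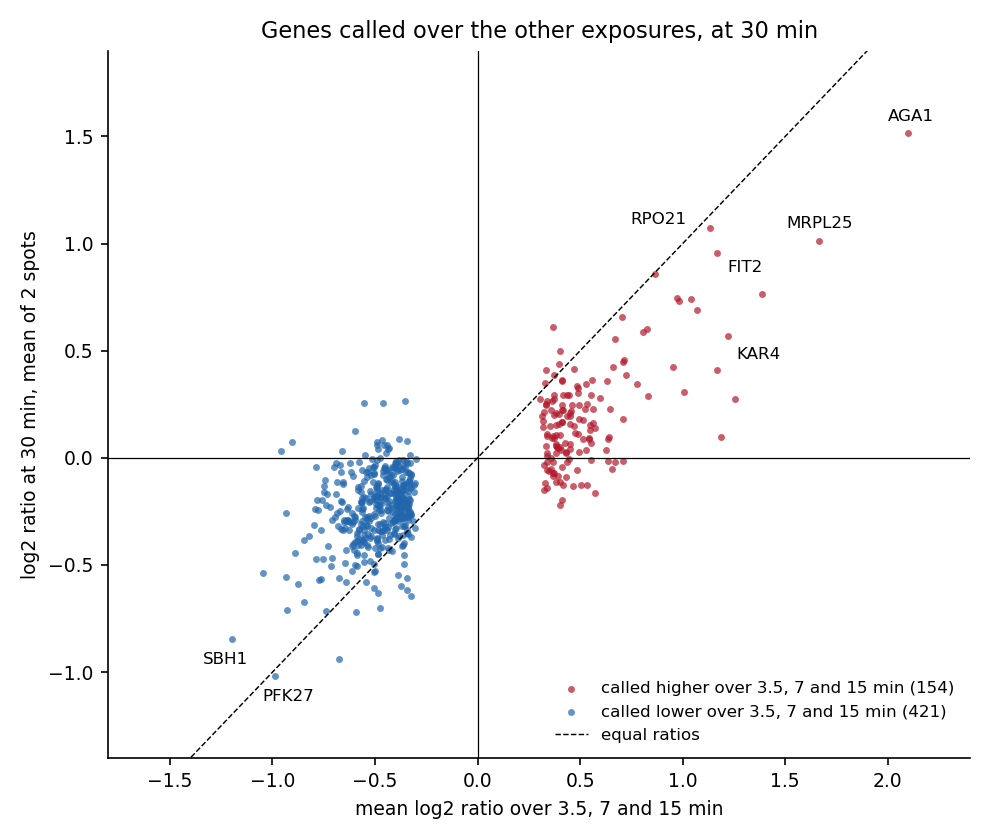
Log2 ratio at 30 min (vertical axis, mean of 2 spots) against the mean log2 ratio over 3.5, 7 and 15 min (horizontal axis) for the 575 features called over those 3 arrays, with equal ratios on the dashed line. At 30 min, 121 of 154 red points lay above 0 and 401 of 421 blue points below 0, against 50.8% and 49.2% of all features.

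The features with the lowest p in the test of 30 min against the other arrays, none of them called, included 6 whose spots or background were uneven. MUM3 had spots of 0.12 and 1.43 and ACH1 spots of −1.14 and −0.06, so 1 spot carried each value. DHH1, YGR290W and GLN3 were among the features of high local background. HUL4, a ubiquitin ligase, had a Cy3 background of 2.72 times the array median, and its mean of 0.26 turned to −0.39 without background correction, so no direction is given for it. MRPS28, of the small mitochondrial ribosomal subunit, had spots of −0.71 and −0.44 against 0.09, and BRF1, a subunit of the initiation factor of RNA polymerase III, −0.34 and −0.42 against 0.35. Their adjusted p was 0.992 each.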

How the data were processed

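The scanner tables hold intensities that the authors deposited unnormalized: per the file headers, mean raw and local background intensity of each spot for the control (C) and peptide (P) channels. Exposures follow the labels, since the headers number the tables in another way (T1 for the 30 min table) that the sources used here do not explain. The deposited series matrix holds log10 ratios of raw Cy5 over raw Cy3 intensity, read from the values, which equal the scanner ratios within 4.98e-07, so that scale and direction are known and nothing was centred. On that scale the 2 columns of the 30 min array had medians of −0.0302 and −0.0292, and those of the other exposures were −0.0440 and −0.0446 (3.5 min), −0.216 and −0.222 (7 min) and −0.0127 and −0.0137 (15 min). No source used here names the scanner software.

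Background was corrected with normexp (offset 50), which pulls the ratios of dim spots to 0. Global loess (span 0.3, 4 iterations, weight 0 for empty and Arabidopsis spots) normalised each array, and duplicate spots were averaged. Features were tested where both spots exceeded the local background by 2 background SDs in a channel on all 4 arrays (184 were not). At 30 min, 3 Cy3 and 4 Cy5 saturated spots were kept. R 4.3.3 with limma 3.58.1 fitted lmFit and eBayes (two-sided, threshold 0.05 on p after Benjamini-Hochberg adjustment) for 30 min against the other 3 arrays, assuming that the 30 min array varies like them, and for the mean of those 3 against 0. Both fits were tested on simulated data. Figures were made in matplotlib 3.10.9 (Python 3.11.15).

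Names were updated through the R64 table (5763 matched, 573 not). Several names stand on 275 features, and the suffix -r, found on 86, has no explanation there either. The genome build behind the probes is unnamed, so coordinates and sequences are left out. The members and the 39 gene lists were chosen with earlier results of these data known. Named were the 12 largest past the limit in each direction with 1 name and all others past it as counts or by name, list members past the limit or at the ends of the 5 highest and 5 lowest lists, the mating genes, the 5 lowest p in each direction of the difference and the 10 highest and lowest over the other exposures. The local background limit was added after the data were seen, and genes named beside a paralog were chosen after their values were seen. The 8 settings were normexp with offset 50 or 10, plain subtraction, no background correction, median centring, loess within blocks, scaling to equal spread and the deposited ratios. Also tried were no filter on dim spots, features above the empty spots alone, single spots, a trended robust prior and arrays left out.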

Additional observations from a re-analysis of the deposited data

Results flagged for a closer look

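The ratio of YIL067C, an uncharacterised gene, was 0.6234 at 30 min and −0.7672 at 15 min, with both spots past 0.5 in opposite directions. SRY1, which encodes an enzyme that breaks down 3-hydroxyaspartate, was at 0.6206 at 30 min and −0.7368 at 15 min, and its local Cy3 background at 30 min was 2.69 times the array median. These were the 2 of 57 features past the limit at 30 min that passed it in the opposite direction on another array, and neither difference was tested on its own.

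Of the 32 features named after Arabidopsis genes, which the yeast comparisons do not use, 26 were brighter than the 95th percentile of the empty spots in both channels at 30 min. Their log2 ratios had a median of −0.32, and 29 of 32 lay below 0. The sources used here do not say whether RNA for these probes was added to the samples.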

How the results depend on the processing

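With 1 array, the counts at 30 min measure agreement of duplicate spots, and the median Cy5 signal was 1.89 times its background. The 31 higher features became 73 with plain background subtraction, 65 with a normexp offset of 10, 52 with median centring, 14 in the deposited ratios, 50 with arrays scaled to equal spread and 54 to 56 without replicate 1 or 2, which leaves single spots. The 26 lower ones became 94, 75, 161 (deposited), 61 (scaled) and 60 to 70 (single spots), with median centring at 30. The single 2-fold feature became 13 (plain subtraction), 10 (offset 10), 5 (no background correction), 2 (median centring), 6 (deposited), 9 (scaled), 2 (no filter on dim spots) and 5 to 8 (single spots). The other settings left these counts within 1.5 times the stated values, and 23 higher and 26 lower features remained after those of high local background were left out, a setting added after the data were seen.

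The difference of 30 min from the other arrays called 0 features and, in limma, 4 with plain subtraction, 3 with offset 10, 1 without background correction, 2 with a trended robust prior and 0 to 4 with an array left out, where the 4 came without the 15 min array. These were DHH1, GLN3, YGR290W, TRS31, MUM3, YLR198C and MCT1. The 575 features called over the other exposures became 271 without background correction, 6 in the deposited ratios, 884 with scaled arrays, 365 with both channels above the empty spots, 871 with the trended robust prior, and 20 to 584 with an array left out. From 84.8% to 100% of them had the same sign at 30 min. YGR290W turned to −0.3545 without background correction and −0.4739 in the deposited ratios. Of 261 values of 24 named genes under other settings, 169 moved by less than the spread between spots, 90 by more and 2 turned. The cause of these shifts was not tested. No paired analysis was possible because replicates 1 and 2 are duplicate spots of 1 array, averaged before the fit.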
